A study of Mus musculus with 7 samples.

Results

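The genes described are the variable (Trbv), diversity (Trbd) and joining (Trbj) segments of the T cell receptor beta locus on mouse chromosome 6. They were taken as every symbol of the deposited table that begins with Trbv, Trbd or Trbj, which gave 51 of 56422 symbols, 35 Trbv, 2 Trbd and 14 Trbj. Expression had been measured by sequencing poly(A) RNA from samples labelled as CD8+ T cells, taken from the ascites of mice carrying a model of peritoneal metastasis. The 3 tested libraries came from mice treated with propionate and butyrate together, short-chain fatty acids that gut bacteria make, and the 4 control libraries from mice with no treatment. The labels name no strain, age, dose, time or allele. Nor do they tie each library to its own animal, and the p-values below therefore reflect only library-to-library spread, which may be technical. One treated column carries a number that no treated sample has, and it is called the unnumbered treated library here.

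A T cell receptor of the alpha beta type reads antigen through an alpha and a beta chain. In the thymus the RAG recombinase joins a Trbv, a Trbd and a Trbj segment into the exon that encodes the antigen-binding end of the beta chain, and splicing then attaches it to Trbc1 or Trbc2, the constant genes. A mature T cell keeps the Trbv segment it rearranged, so in bulk RNA the level of a segment sums over all clones that carry it. An expanded clone raises its own segment above the others, and a larger number of T cells raises all of them. In bulk samples fewer T cells and less receptor RNA per T cell cannot be told apart.

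The reference 3′ ends of the segments that the results turn on are shown first, because this is the end that a beta chain carries into the antigen-contacting loop called CDR3. Each line gives the last 60 bases of the segment in GENCODE M21 (build GRCm38, chromosome 6, plus strand), 5′ to 3′, with the codon of the conserved cysteine that opens that loop in capitals. The first 5 have the highest mean level over the 7 libraries, and Trbv14 and Trbv22 are the segments whose share of the Trbv total did not overlap between the groups.
Trbv16: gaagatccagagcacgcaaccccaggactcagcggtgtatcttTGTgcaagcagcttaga
Trbv13-1: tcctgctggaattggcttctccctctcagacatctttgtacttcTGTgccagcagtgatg
Trbv29: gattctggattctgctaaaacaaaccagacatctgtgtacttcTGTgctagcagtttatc
Trbv5: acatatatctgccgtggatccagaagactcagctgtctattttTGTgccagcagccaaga
Trbv3: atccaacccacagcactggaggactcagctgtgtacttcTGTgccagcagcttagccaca
Trbv14: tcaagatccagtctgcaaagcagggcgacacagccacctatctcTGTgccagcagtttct
Trbv22: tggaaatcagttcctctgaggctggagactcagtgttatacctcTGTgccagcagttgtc
The bases after the cysteine codon differ among the segments shown, but Trbv2 shares those of Trbv5, and Trbv13-3 those of Trbv13-1. The codon was sought as the bases tgtgc near the end of the reference sequence, which were found in 21 detected segments. In 16 of them gccagc directly followed tgt. A tgt before other bases, as in Trbv20 and Trbv30, was not counted, and the reading frame was not checked.

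Most beta variable segments are distinct enough in sequence to be told apart, and the copies of the Trbv12 and Trbv13 families are the exception. Over the last 270 bases the 270 pairs outside these families were 45.8% to 75.9% identical, with no identical run longer than 21 bases. Trbv13-2 and Trbv13-3 were 91.1% identical, with an identical run of 50 bases, and Trbv12-1 and Trbv12-2 were 88.5% identical, with a run of 44 bases. Trbv13-1 was 87.8% and 84.8% identical to Trbv13-2 and Trbv13-3. The sources used here do not give the way reads were divided among these copies, and the split within each family is uncertain. The last 120 bases of the 3 Trbv13 copies are shown with the 26 positions at which they are not all the same in capitals.
Trbv13-1: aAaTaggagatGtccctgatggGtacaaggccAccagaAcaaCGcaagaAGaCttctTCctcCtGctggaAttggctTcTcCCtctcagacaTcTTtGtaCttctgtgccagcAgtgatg
Trbv13-2: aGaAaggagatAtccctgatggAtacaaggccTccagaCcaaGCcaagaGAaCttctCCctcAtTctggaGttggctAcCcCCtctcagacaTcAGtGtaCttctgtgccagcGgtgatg
Trbv13-3: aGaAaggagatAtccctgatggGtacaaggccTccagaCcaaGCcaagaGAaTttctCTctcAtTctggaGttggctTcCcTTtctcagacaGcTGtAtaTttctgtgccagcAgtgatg
The same stretch of Trbv12-1 and Trbv12-2 differs at 9 positions, again in capitals.
Trbv12-1: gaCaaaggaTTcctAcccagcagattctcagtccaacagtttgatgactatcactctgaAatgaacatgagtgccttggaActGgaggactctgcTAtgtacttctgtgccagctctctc
Trbv12-2: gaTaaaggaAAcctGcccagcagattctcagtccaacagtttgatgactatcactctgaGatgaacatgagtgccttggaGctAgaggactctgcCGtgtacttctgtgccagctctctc

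Markers of other cells were present beside those of T cells in every library. Cd8a, which encodes part of the CD8 co-receptor, was at 112.7, 242.2 and 54.3 TPM in treated libraries 1 and 2 and the unnumbered treated library, against 15.6, 14.8, 7.95 and 18.0 TPM in control libraries 1 to 4. Cd4, the co-receptor of helper T cells, was at 0.84 to 2.16 TPM in treated and 0.40 to 1.41 TPM in control libraries. Summed TPM of 9 markers of tumour epithelium and mesothelium was 831 to 1559 in treated and 2199 to 2723 in control libraries, with none of the 9 at 0 throughout. That of 8 macrophage markers, mostly Lyz2 and Apoe, was 3307 to 4034 in treated and 6095 to 14765 in control libraries, again with none at 0. Of the 8, Adgre1, Cd68, Lyz2 and C1qb overlapped between the groups, while Apoe, Csf1r, C1qa and C1qc were lower in every treated library. In the test described below only Apoe was called lower, and none was called higher. Summed markers of gamma delta T cells, mostly Trgc2 and Trgv2, were at 26.5 to 66.6 TPM in treated and 5.68 to 13.0 TPM in control libraries. Trdc, of the delta chain, overlapped between the groups, at 0.45 to 1.78 TPM in treated and 0.20 to 1.28 TPM in control libraries. Trgc1, Trdv4 and Sox13, also on that list, overlapped too. Summed markers of natural killer cells were at 2.29 to 6.14 TPM in treated and 0.59 to 1.83 TPM in control libraries. The 5 B cell markers overlapped between the groups, at 64.3 to 93.8 TPM in treated and 28.6 to 102 TPM in control libraries. The 4 markers of CD4 and regulatory T cells, mostly Zbtb7b, summed to 31.8 to 36.0 TPM in treated and 38.1 to 56.4 TPM in control libraries. That difference was one of Zbtb7b. Foxp3, of regulatory T cells, went the other way at low levels, with 0.49 to 0.70 TPM in treated and 0.18 to 0.26 TPM in control libraries. Cd4 and Cd40lg overlapped between the groups. The 5 thymocyte markers, mostly Cd1d1, summed to 6.95 to 15.2 TPM in treated and 3.93 to 5.34 TPM in control libraries, with Rag2 at 0 in all 7. The part of these other cells in the results was not tested. Mitochondrially encoded genes held 32.9% of TPM in the unnumbered treated library and 13.6% to 18.2% in the other 6. Copies of them under 6 further symbols held another 20.2% in the unnumbered treated library and 8.52% to 11.1% in the other 6 libraries. TPM corrects for transcript length and scales every library to the same total, so sequencing depth is unknown.

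Of the 35 Trbv symbols, 24 had a TPM above 0 in at least 1 library and 11 were listed at 0 in all 7. RefSeq calls 10 of those 11 pseudogenes, and the remaining one is Trbv21. All 22 segments that textbook lists give as functional were among the 24 detected, and the other detected segments, Trbv12-3 and Trbv22, are pseudogenes in both RefSeq and GENCODE. The references differ on Trbv29, a pseudogene in RefSeq but not in GENCODE, and on Trbv24, where it is the reverse. The number of detected segments was 21, 24 and 22 in treated libraries 1 and 2 and the unnumbered treated library, against 18, 17, 16 and 20 in control libraries 1 to 4. The groups did not overlap in this count. The summed Trbv level was also lower in the control libraries, as given below, and its part in the segments listed at 0 there was not tested. All 16 Trbd and Trbj symbols, the short segments between the variable and constant parts, were listed at 0 in every library, and the reason was not tested. Joining usage is therefore not described.

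Beta variable transcripts were higher in the treated libraries across almost the whole locus. The summed Trbv level was 386 TPM in treated library 1, 851 TPM in treated library 2 and 241 TPM in the unnumbered treated library. It was 45.4, 50.6, 29.6 and 63.3 TPM in control libraries 1 to 4. The lowest treated library lay far above the highest control library, and the treated libraries also spread more widely. The means were 493 ± 319 TPM (SD, n = 3) in treated and 47.2 ± 13.95 TPM (SD, n = 4) in control libraries, a ratio of 10.4, which was 6.64 without treated replicate 2. No test was run on this sum.

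Of the 24 detected segments, 20 passed the filter of at least 1 TPM in at least 3 libraries and were tested with limma over all 14967 genes on log2(TPM + 1), with genes called at a Benjamini-Hochberg adjusted p under 0.05. Among them 19 rose and 0 fell, where 4.3% of all tested genes rose and 7.59% fell. The TPM of every treated library exceeded that of every control library for 18 of the 20, against 4.82% of all tested genes. The log2 fold changes of the 20 ran from 1.11 for Trbv2 to 3.72 for Trbv13-1, with a median of 2.57, while the median over all tested genes was -0.24. Of the 20 segments, 19 also pass if 4 libraries must reach 1 TPM. The exception, Trbv22, passed through the treated libraries alone, so its difference follows from the filter.

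**Figure D1:**
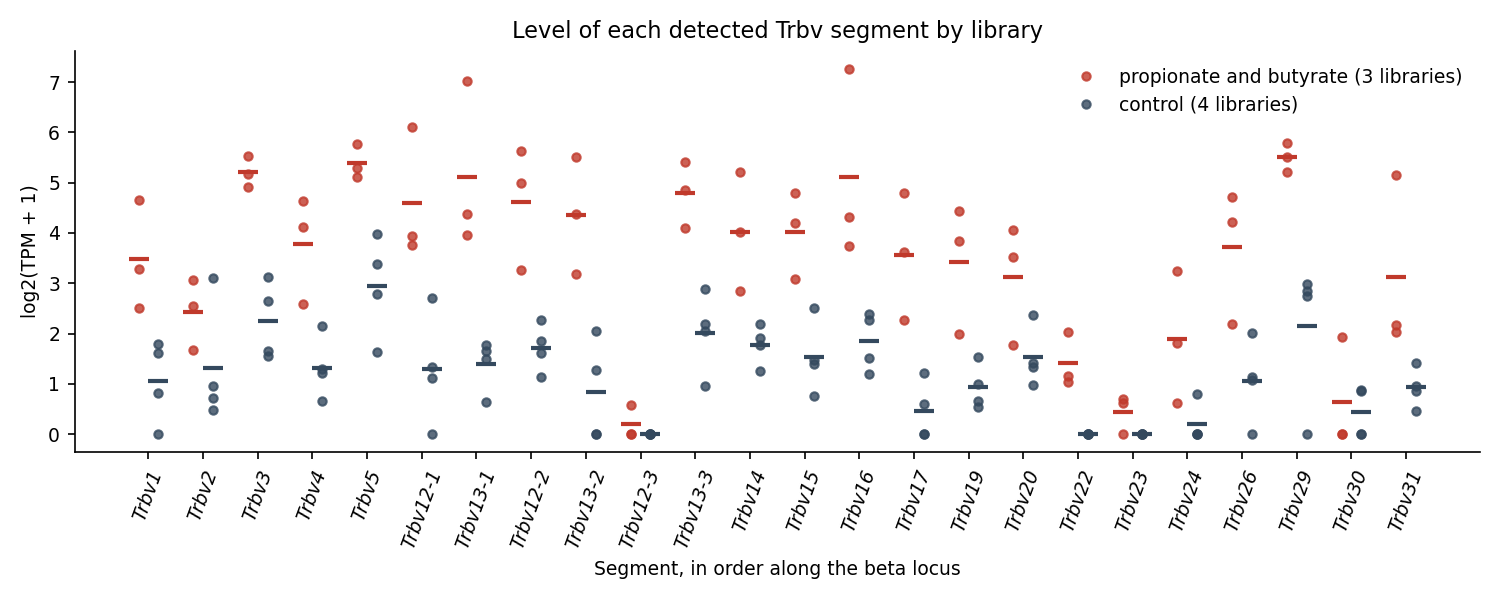
Level of the 24 detected Trbv segments on a log2(TPM + 1) axis, in order along the locus. Each point is a library, red for the 3 treated and dark blue for the 4 control libraries, and bars mark group means; Trbv16 and Trbv13-1 of treated replicate 2 are the highest points.

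The segments with the highest treated means were Trbv16 and Trbv13-1, and both rested on treated library 2. Trbv16, known in older nomenclature as Vβ11, was at 18.9, 152.2 and 12.5 TPM in treated libraries 1 and 2 and the unnumbered treated library, against 1.30, 1.87, 3.81 and 4.26 TPM in control libraries 1 to 4. Trbv13-1, or Vβ8.3, was at 19.9, 128.3 and 14.5 TPM in the treated libraries in the same order, against 0.56, 1.83, 2.14 and 2.44 TPM in the control libraries. In both segments treated library 2 stood far above the other treated libraries, which in turn lay above all controls. Trbv16 rose by a log2 fold change of 3.26 (SE 0.60, limma Benjamini-Hochberg adjusted p = 0.00333), or 2.19 without treated replicate 2. Trbv13-1 rose by 3.72 (SE 0.54, limma adjusted p = 0.000784), or 2.77 without that library.

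Trbv29, Trbv5 and Trbv3 were the next segments in mean level and were even across the treated libraries. Trbv29, or Vβ7, was at 44.8, 54.0 and 36.0 TPM in treated libraries 1 and 2 and the unnumbered treated library, against 6.91, 0, 5.67 and 6.17 TPM in control libraries 1 to 4. It was listed at 0 in control library 2, where 7 of the 24 detected segments were at 0, Trbv13-2 and Trbv17 among them. Trbv5, or Vβ1, was at 38.0, 33.6 and 53.2 TPM in the treated libraries, against 14.7, 5.92, 2.10 and 9.37 TPM in the control libraries, where it had the highest mean of any segment. Trbv3, or Vβ16, was at 29.0, 45.5 and 35.3 TPM in the treated libraries, against 2.15, 1.95, 5.25 and 7.71 TPM in the control libraries. None of these groups overlapped, and the treated values of each segment lay within a narrower range than those of Trbv16. Their log2 fold changes were 3.36 (SE 0.54) for Trbv29, 2.44 (SE 0.40) for Trbv5 and 2.96 (SE 0.34) for Trbv3, with limma adjusted p of 0.00139, 0.00178 and 0.000414. Without control replicate 2, the library in which it was listed at 0, the Trbv29 value was 2.65. For Trbv5 the limma adjusted p was 0.0527 without the unnumbered treated library, with a log2 fold change of 2.26.

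The duplicated Trbv12 and Trbv13 segments rose as well, subject to the uncertain split of reads between copies. Trbv13-2, or Vβ8.2, was at 19.8, 44.7 and 8.05 TPM in treated libraries 1 and 2 and the unnumbered treated library, against 1.43, 0, 0 and 3.12 TPM in control libraries 1 to 4. Trbv12-1, or Vβ5.2, was at 14.4, 67.7 and 12.5 TPM in the treated libraries, against 0, 1.51, 1.17 and 5.56 TPM in the control libraries. Neither segment overlapped between the groups, and each was listed at 0 in at least 1 control library. The log2 fold changes were 3.53 for Trbv13-2, 3.31 for Trbv12-1, 2.90 for Trbv12-2 and 2.77 for Trbv13-3, all called. Treated means of Trbv12-2 and Trbv13-3 were 29.2 ± 19.9 and 28.5 ± 12.6 TPM (SD, n = 3), against control means of 2.43 ± 1.09 and 3.49 ± 2.23 TPM (SD, n = 4).

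The remaining segments that rose were less abundant, with treated means between 9.54 TPM (Trbv20) and 19.1 TPM (Trbv14) apart from Trbv22. The log2 fold changes were 3.11 for Trbv17, 2.65 for Trbv26, 2.49 for Trbv15, 2.48 for Trbv19, 2.46 for Trbv4 and 2.43 for Trbv1. Trbv31, which lies beyond the constant genes in the opposite orientation and is joined by inversion, was at 3.09, 34.7 and 3.48 TPM in treated libraries 1 and 2 and the unnumbered treated library, against 0.38, 0.82, 0.95 and 1.68 TPM in control libraries 1 to 4. Treated library 2 was again far above the other treated libraries, and the groups did not overlap. Trbv31 rose by a log2 fold change of 2.19 (SE 0.56, limma adjusted p = 0.0215), which was 1.17 without treated replicate 2, and the call was lost without the unnumbered treated library (adjusted p = 0.0707), with median-of-ratios scaling (0.0511) and with a pseudocount of 5 (0.0622). The smallest called change outside the pseudogenes was that of Trbv20, or Vβ15, with a log2 fold change of 1.60 (limma adjusted p = 0.0333, and 0.129 without treated replicate 1). Its groups overlapped, at 15.6, 10.6 and 2.42 TPM in treated libraries 1 and 2 and the unnumbered treated library, against 1.51, 4.20, 0.98 and 1.65 TPM in control libraries 1 to 4.

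Trbv2, or Vβ4, was the 1 tested segment that was not called. It was at 4.81, 7.36 and 2.18 TPM in treated libraries 1 and 2 and the unnumbered treated library, against 0.39, 7.60, 0.94 and 0.65 TPM in control libraries 1 to 4. Control library 2 exceeded every treated library, while the other control libraries lay below all of them. The log2 fold change was 1.11 (SE 0.51, limma adjusted p = 0.156), and 1.71 without control replicate 2 (adjusted p = 0.000635). The pseudogene Trbv22 was at 3.10, 1.24 and 1.05 TPM in the treated libraries and listed at 0 in all 4 control libraries. Trbv23, Trbv24, Trbv30 and Trbv12-3 were detected but not tested, with highest values of 0.62, 8.43, 2.82 and 0.50 TPM among the 7 libraries. Trbv2 and these 4 segments are named as exceptions, chosen after their values were seen.

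The number of segments called differed between settings of the test. Robust variance estimation left 8 of the 20 called, Trbv22 among them, with 17 at an unadjusted p under 0.05, in a fit that called 2106 of 14967 genes in all. Trbv16, Trbv29, Trbv5 and Trbv12-1 lost their calls there, with limma adjusted p of 0.0869, 0.0593, 0.0552 and 0.072, as did Trbv1, Trbv4, Trbv14, Trbv19, Trbv20, Trbv26 and Trbv31. Without the intensity trend 19 were called, in a fit that called 1634 of 14967 genes in all. With no filter on low values limma called 0 of 24 segments, 21 having an unadjusted p under 0.05 and the smallest adjusted p being 0.0611, in a fit that called 7 of 29687 genes in all. When 5 TPM were required, 12 segments were tested and all 12 rose, in a fit that called 1575 of 11044 genes in all. Leaving out treated replicate 2 lowered the log2 fold change of every segment still tested except Trbv5. Those of Trbv12-1, Trbv14 and Trbv17 became 2.56, 1.65 and 2.49, and all 3 were still called. In that fit 18 of 19 tested segments were called, beside 974 of 14671 genes in all. Leaving out the unnumbered treated library raised the log2 fold change of every segment still tested except Trbv5. Those of Trbv12-2, Trbv14, Trbv16, Trbv17, Trbv19, Trbv20, Trbv26, Trbv4 and Trbv13-1 rose to between 2.27 and 4.31, and all 9 were still called. There 16 of 19 tested segments were called, beside 1332 of 14780 genes in all, and Trbv31 and Trbv5 lost their calls.

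**Figure D2:**
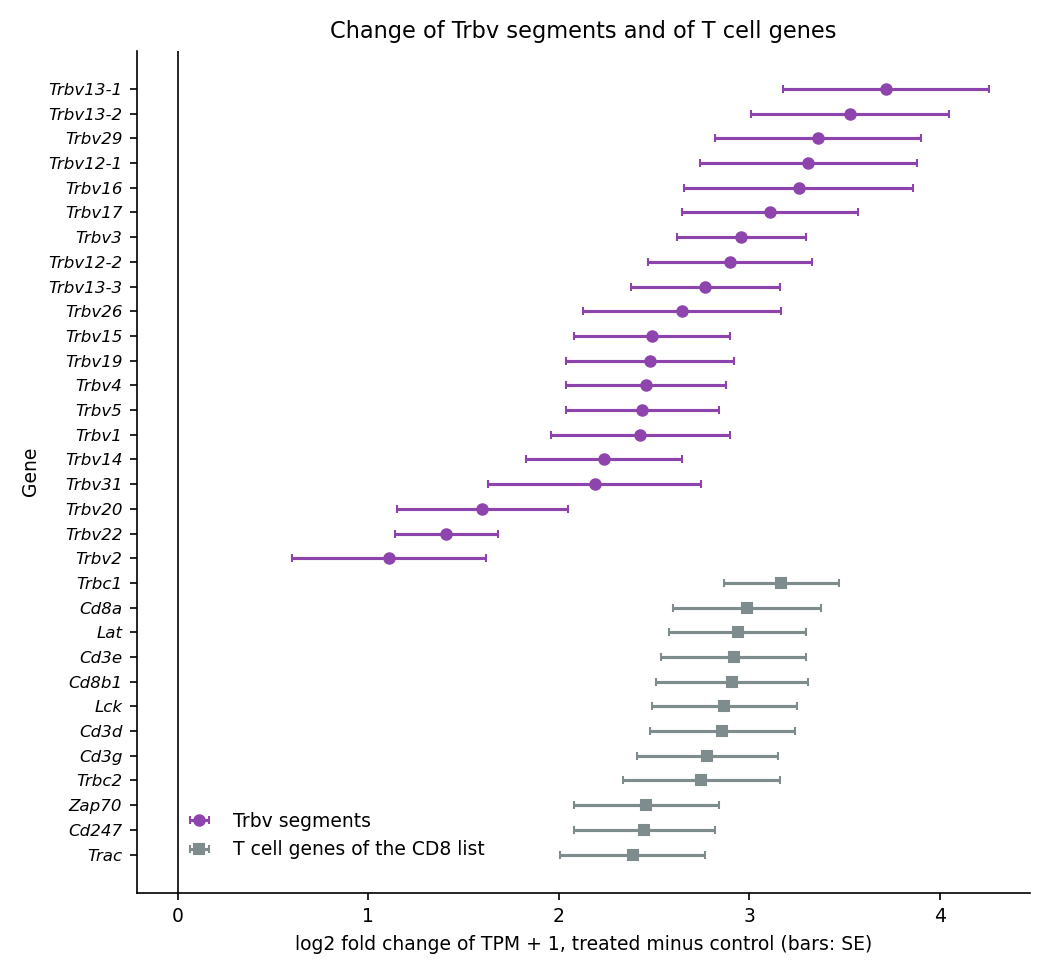
Log2 fold change of TPM + 1, treated minus control, with its SE, for the 20 tested Trbv segments (circles) and 12 T cell genes of the CD8 list (squares). The segments run from 1.11 to 3.72 and the T cell genes from 2.39 to 3.17.

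Other genes of the receptor rose as well. Trbc1 was at 109.3, 182.4 and 79.3 TPM in treated libraries 1 and 2 and the unnumbered treated library, against 12.9, 10.8, 7.68 and 19.7 TPM in control libraries 1 to 4, a log2 fold change of 3.17 (SE 0.30). Trbc2 was at 180.5, 459.2 and 82.7 TPM in the treated libraries, against 29.2, 31.4, 17.8 and 34.9 TPM in the control libraries, a log2 fold change of 2.75 (SE 0.41). Neither constant gene overlapped between the groups, and the order of the treated libraries was that of the summed Trbv level. Of the 6 receptor constant genes 5 were tested and 4 rose, among them Trac, of the alpha chain, by 2.39 and Trgc2, of the gamma chain, by 2.20. Of the 130 alpha variable (Trav) segments 35 were tested and 29 rose, with a median log2 fold change of 1.69. All 6 CD3 and CD8 chain genes, which carry the signal and bind MHC class I, rose, with a median of 2.88. The CD8 list of 12 genes had a median of 2.87 beside 2.57 for the 20 segments.

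The genes that cut and join the segments or assemble the receptor were called at about the share of all genes. Of 18 assembly and recombination genes 14 were tested and 1 rose, Trat1, an adaptor of the assembled receptor, at a log2 fold change of 1.10 (limma adjusted p = 0.0151). None fell. The median of the list was -0.17 beside -0.24 over all tested genes, of which 4.3% rose. Rag2, a subunit of the recombinase, was listed at 0 in every library. Its partner Rag1, Dntt, which adds untemplated bases at the joins, and Ptcra, the surrogate alpha chain of thymocytes, had highest values of 0.02, 0.41 and 0.13 TPM among the 7 libraries.

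Relative to the constant genes, the variable segments were somewhat higher in the treated libraries. The ratio of summed Trbv to summed Trbc1 and Trbc2 TPM was 1.33, 1.33 and 1.49 in treated libraries 1 and 2 and the unnumbered treated library, against 1.08, 1.20, 1.16 and 1.16 in control libraries 1 to 4. The groups did not overlap, with means of 1.38 ± 0.0902 (SD, n = 3) in treated and 1.15 ± 0.0516 (SD, n = 4) in control libraries. In the alpha chain the corresponding ratio of Trav segments to Trac was 1.42, 1.29 and 1.77 in the treated libraries, against 0.73, 0.93, 0.48 and 1.24 in the control libraries. In both chains the unnumbered treated library, which also had the highest mitochondrial share, had the highest ratio, and the part of that share in the ratio was not tested. No test was run on these ratios.

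**Figure D3:**
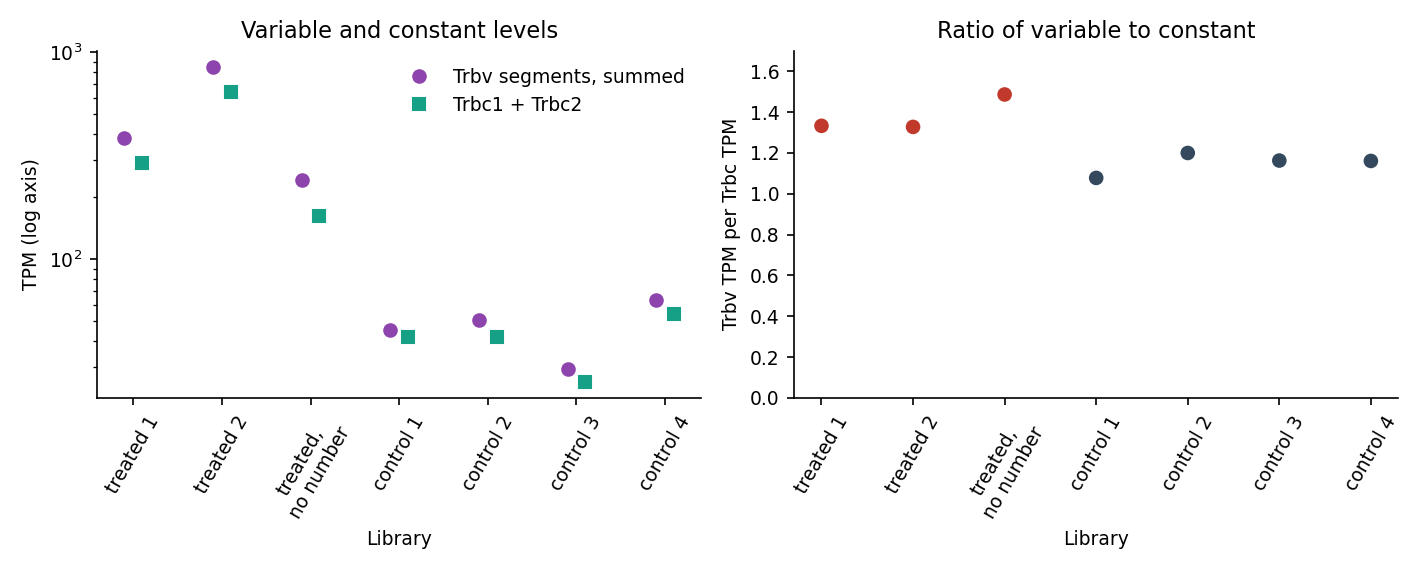
Left, summed TPM of the Trbv segments (circles) and of Trbc1 and Trbc2 (squares) in each library on a log axis. Right, their ratio, red for treated and dark blue for control libraries; the treated ratios of 1.33 to 1.49 lie above the control ratios of 1.08 to 1.20.

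For single segments, the level per unit of constant-gene TPM overlapped between the groups in 23 of the 24 detected, Trbv22 being the other. Trbv16 was at 6.53%, 23.7% and 7.69% of the Trbc level in treated libraries 1 and 2 and the unnumbered treated library, against 3.08%, 4.44%, 15.0% and 7.81% in control libraries 1 to 4. Trbv5 was at 13.1%, 5.24% and 32.8% in the treated libraries, against 35.0%, 14.05%, 8.25% and 17.2% in the control libraries. In Trbv5 the spread within each group was larger than the difference between the group means, and in Trbv16 the highest control library lay above the lowest treated library. With all libraries rescaled to the same Trbc level, the median log2 fold change of the 19 tested segments was 0.34, and that of all genes was -2.75. In that fit, an alternative added after the data were seen, limma called Trbv13-2, Trbv13-1, Trbv17 and Trbv12-1 higher and Trbv2 lower. Because 97.6% of all genes were called lower there and 0.0933% higher, the Benjamini-Hochberg adjustment hardly differed from the raw p. With the Trbc level as a covariate limma called 0 of the 20 segments (2 at an unadjusted p under 0.05). That fit called 9 of 14967 genes in all, and 7 of the 20 log2 fold changes were positive. Summed Trbc1 and Trbc2 TPM was 162 to 642 in treated and 25.5 to 54.6 in control libraries. The covariate thus followed the groups, and this fit can hardly separate it from the treatment, so nothing is read from it.

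The composition of Trbv expression was next compared as shares of the Trbv total, which do not change with the scaling of a library. The leading segment was Trbv29 with 11.6% in treated library 1, Trbv16 with 17.9% in treated library 2 and Trbv5 with 22.1% in the unnumbered treated library. In control libraries 1 to 4 it was Trbv5 with 32.5%, Trbv2 with 15.0%, Trbv29 with 19.2% and Trbv5 with 14.8%. No segment led in every library of either group. The 3 leading segments together held 29.4%, 40.9% and 51.7% in the treated libraries, against 56.1%, 39.3%, 49.8% and 36.7% in the control libraries.

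**Figure D4:**
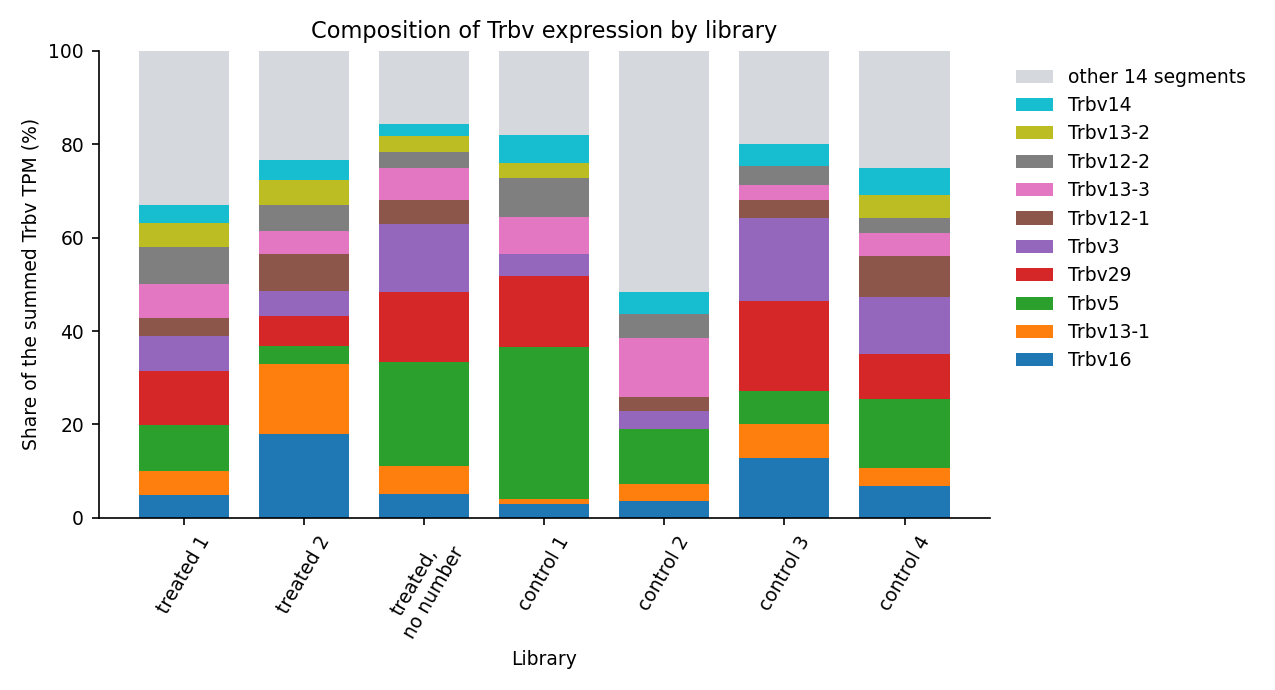
Share of the summed Trbv TPM in each library held by the 10 segments with the highest mean level and by the other 14 detected. Trbv16 and Trbv13-1 together hold 32.9% in treated library 2, and Trbv5 holds 32.5% in control library 1.

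Evenness was summarised by the effective number of segments, the inverse of the sum of squared shares, which equals the number of segments when all are equal. It was 15.6, 11.6 and 8.92 in treated libraries 1 and 2 and the unnumbered treated library, against 6.48, 11.7, 9.28 and 13.0 in control libraries 1 to 4. The groups overlapped, with means of 12.1 ± 3.37 (SD, n = 3) in treated and 10.1 ± 2.87 (SD, n = 4) in control libraries. The most even and 1 of the less even libraries were both treated. Of the 24 segments, 0 to 3 were listed at 0 in treated libraries and 4 to 8 in control libraries, and since depth is unknown the part of low counts in the control shares was not tested.

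The groups' shares did not overlap in 2 of the 24 detected segments, Trbv14 and Trbv22. This is 8.33% of the segments compared, and no share over other genes can be set beside it. No test was run on the shares, and how many segments would separate by chance was not estimated. The count is therefore not read as a change of composition. Trbv14, or Vβ13, held 3.92%, 4.22% and 2.59% of the Trbv total in treated libraries 1 and 2 and the unnumbered treated library, against 6.04%, 4.75%, 4.73% and 5.67% in control libraries 1 to 4. Its share was lower in the treated libraries while its TPM was higher, with 15.1, 35.9 and 6.24 TPM in treated and 2.74, 2.40, 1.40 and 3.59 TPM in control libraries and a log2 fold change of 2.24 (limma adjusted p = 0.00321). Trbv22 held 0.80%, 0.15% and 0.44% in the treated libraries and was listed at 0 in the control libraries. Per unit of Trbc the Trbv14 groups overlapped, at 3.85% to 5.59% in treated and 5.50% to 6.58% in control libraries. Without control replicate 3 the shares of 4 segments did not overlap, and likewise without control replicate 4 or without treated replicate 1.

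Trbv16 and Trbv13-1 together held 10.1%, 32.9% and 11.2% of the Trbv total in treated libraries 1 and 2 and the unnumbered treated library, against 4.10%, 7.32%, 20.1% and 10.6% in control libraries 1 to 4. The high value belonged to 1 library, and the control range covered the other treated libraries. Trbv3, Trbv5 and Trbv29 together held 28.9%, 15.6% and 51.7% in the treated libraries, against 52.4%, 15.6%, 44.0% and 36.7% in the control libraries. These 3 segments made up most of the Trbv level in the unnumbered treated library and in control library 1, and a small part of it in treated library 2 and control library 2.

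By family and position the groups overlapped too. The Trbv13 family, summed so that the split between copies does not matter, held 17.5%, 25.2% and 16.1% in the treated libraries, against 12.2%, 16.2%, 10.4% and 13.7% in the control libraries. The lowest treated and the highest control library nearly coincided. Trbv1 to Trbv5, the segments at the far end of the locus from the constant genes, held 15.8% to 41.7% in treated and 29.9% to 42.6% in control libraries. Trbv31 held 0.80% to 4.07% in treated and 0.84% to 3.21% in control libraries.

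Segments used by natural killer T cells, whose receptors pair a fixed alpha chain mostly with Vβ8, Vβ7 or Vβ2 segments (the Trbv13 family, Trbv29 and Trbv1), were summed after their values were seen. They held 31.4%, 34.3% and 33.0% of the Trbv total in treated libraries 1 and 2 and the unnumbered treated library, against 29.1%, 21.03%, 29.5% and 26.7% in control libraries 1 to 4. The groups did not overlap in this sum, but the shares of the Trbv13 family, of Trbv29 and of Trbv1 each overlapped when taken apart. How many such sums would separate by chance was not estimated, so nothing is read from the sum. Conventional T cells use these segments as well. Zbtb16, the transcription factor that defines natural killer T cells, was at 0.08 to 0.42 TPM in treated and 0.07 to 0.27 TPM in control libraries, and Trav11, the fixed alpha segment, was listed at 0 in all 7.

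The likeness of the libraries in their segment shares was described by rank. Over the 24 detected segments the Spearman correlation of shares was 0.70 to 0.88 between treated libraries, 0.21 to 0.88 between a treated and a control library and 0.28 to 0.69 between control libraries. The lowest values all involved control library 2, in which Trbv29 was listed at 0 and Trbv2 led. These segments are not independent samples, and the libraries share the same lengths and reference, so the values only describe likeness.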

How the data were processed

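Poly(A) RNA of 7 libraries was sequenced from stranded preparations, per the labels' protocols. The authors deposited TPM values for 149132 transcript rows; the submitters' processing notes name fastp, HISAT2, StringTie and build mm39, without roles or versions. Columns were matched to samples by name; 0 other value columns were present. TPM was summed per symbol (each beta segment had 1 row), and 1001 symbol-less rows, holding 0.307% to 0.618% of each library, were left out. Genes at 1 TPM or more in at least 3 libraries were compared on log2(TPM + 1) in limma 3.58.1 (R 4.3.3) with an intensity trend and Benjamini-Hochberg adjustment over 14967 genes; such fold changes understate those of low genes. The model was also run on data simulated from the genes that passed this filter. Changes were set there only in genes of higher mean level, so that run says nothing on segments of low level. All 51 symbols matched RefSeq (GRCm38.p6) and GENCODE M21 by symbol; no coordinates are printed, since that build is not the authors'. Named were the 10 Trbv symbols highest in mean, those called, those with non-overlapping shares and fixed lists. Members and lists were chosen with earlier results of these data known.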

Additional observations from a re-analysis of the deposited data

Results flagged for a closer look

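Among the 4 control libraries, 1 value stood apart from the rest of its group for Trbv2, Trbv20 and Trbv24. Trbv2 was at 7.60 TPM in control replicate 2, against 0.39 to 0.94 TPM in the other 3, and its share of the Trbv total there was 15.0%. In the same library Trbv20 held 8.31% of the Trbv total, against 2.61% to 3.33% in the other 3. Trbv24 was at 0.73 TPM and 1.15% of the Trbv total in control replicate 4 and listed at 0 in the other 3. With the other 3 values tied at 0, any value above 0 would have stood apart, so nothing is read from Trbv24. For Trbv2 and Trbv20, chance alone gives such a value in about 1 of 20 groups if the values are normally distributed. TPM and shares need not be, so the rate here is not known. The levels and shares of 24 segments were examined. Of these, Trbv12-3, Trbv22 and Trbv23 were listed at 0 in all 4 control libraries and could not stand apart. Groups of 3 libraries were not examined in this way.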

How the results depend on the processing

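Against 19 segments called higher, 18 to 20 were called with other pseudocounts, scalings to the library total or no intensity trend. Array weights gave 20, a filter of 4 libraries gave 18 of 19 tested, and a threshold of 0.01 gave 17. The 20 with array weights came from a fit that called 6467 of 14967 genes in all, against 1779 in the fit given above. Without mitochondrial genes and copies, 20 of 22 segments were called, beside 2556 of 15904 genes. The other fits named here called 614 to 2301 genes in all. The count of segments called higher was 8 with robust variance estimation, 12 of 12 tested at 5 TPM or more and 0 with no filter. It was 0 with the Trbc covariate and 4 after rescaling to Trbc, where 1 was lower. Apart from the fewer segments tested at 5 TPM, the cause was not tested. Leaving out each library in turn gave 16 to 20 segments called, in fits that called 974 to 3363 genes in all. The Trbc level did not overlap between the groups, so nothing is read from the signs in the covariate fit. With the Trbc covariate the log2 fold changes turned negative for Trbv1 (-1.11), Trbv12-1 (-0.19), Trbv12-2 (-0.13), Trbv13-2 (-0.30), Trbv14 (-1.01), Trbv15 (-0.02), Trbv16 (-0.71), Trbv19 (-0.78), Trbv2 (-0.48), Trbv20 (-0.61), Trbv26 (-0.35), Trbv31 (-1.55) and Trbv4 (-0.68), and after rescaling to Trbc for Trbv14 (-0.27), Trbv2 (-0.88), Trbv20 (-0.68) and Trbv5 (-0.27). With a pseudocount of 5 the 20 log2 fold changes ran from 0.43 to 2.58, and Trbv31 was not called. Median-of-ratios scaling moved the median of all genes from -0.24 to -0.02, leaving out mitochondrial genes and copies moved it to -0.05, and no segment changed direction under either, though Trbv31 was not called under the first (adjusted p = 0.0511). The ratio of summed Trbv TPM stayed at 9.28 to 13.1 when a library was left out, except 6.64 without treated replicate 2, and was 11.3 and 11.8 under those scalings. Segments whose shares did not overlap numbered 1 with either set of pseudogenes left out of the denominator, 1 with Trbc as the denominator, and 2 to 4 when a library was left out. Only the numbers 1 and 2 could serve as a replicate block. It called 16 of 17 segments, as did the same 4 libraries without the block, in fits that called 638 and 555 of 14073 genes. Same-numbered libraries did not deviate together (correlations of -0.019 and -0.09). TPM carries no depth, so no detection limit could be given.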
